A study of Mus musculus with 6 samples.

Results

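The genes of 8 IκB proteins and feedback inhibitors of NF-κB signalling were followed through a TNFα time course in mouse embryonic fibroblasts (MEFs). They were Nfkbia, Nfkbib, Nfkbie, Nfkbiz, Bcl3, Tnfaip3, Tnip1 and Cyld. Members were found by their symbols in a table of 27794 RefSeq transcripts with 21837 gene symbols, and all 8 were listed. Where a symbol had several transcripts, the one with the highest mean over the libraries was used. The cells were primary wildtype MEFs of strain C57BL/6x 129 from embryos at day 13.5, at 4 passages. They were untreated or received 20 ng/ml of TNFα for 1.5, 6 or 24 hr. Each of the 4 conditions was measured by 1 library of directional, poly-A selected RNA-seq, and H3K4me3, a histone mark of active promoters, was measured in untreated cells by 1 ChIP-seq library against 1 input library. All cells were wildtype, so the design held no cells in which NF-κB was removed.

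NF-κB is a family of dimeric transcription factors that classical IκB proteins hold in the cytoplasm. TNFα binding to its receptor assembles a complex of adaptors and ubiquitin ligases that activates the IKK kinases, which mark the IκB proteins for degradation and release the dimers to the nucleus. Among the genes that NF-κB then switches on are those of its own inhibitors, and the resynthesis of IκBα is the best known negative feedback loop of the pathway. The classical IκB genes are Nfkbia, Nfkbib and Nfkbie, which encode IκBα, IκBβ and IκBε. Nfkbiz and Bcl3 encode IκBζ and BCL-3, nuclear members of the IκB family that bind NF-κB dimers on DNA and can promote transcription. Tnfaip3 encodes A20, a ubiquitin-editing enzyme, Tnip1 encodes ABIN1, a ubiquitin-binding partner of A20, and Cyld encodes a deubiquitinase that removes ubiquitin chains built at the receptor.

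Short stretches of the promoters are shown because NF-κB binds the κB motif and the members differed in whether these letters stood near their starts. Windows from 250 bases before to 50 bases after the annotated RefSeq starts (GRCm38.p6) were available for 7 of the 8 members, and each was placed in mm9 by an exact match. Nfkbiz had no entry. The motif searched was GGG and TTTCC with any 2 bases between them. It was found on either strand in the windows of 3 of the 7 members, against 1.95% of 14214 coding genes with such a window. Each run below has 30 bases, is written 5′ to 3′ in the direction of the gene, and has the match in capitals, which in these 3 genes reads as the motif on the opposite strand.
Nfkbia, chr12:56593644-56593673, minus strand: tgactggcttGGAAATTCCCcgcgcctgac
Tnfaip3, chr10:18735209-18735238, minus strand: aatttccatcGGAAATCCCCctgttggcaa
Cyld, chr8:91220762-91220791, plus strand: ttgaccgagcGGAAAGTCCCttcagccagc
The match began 29 bases before the start of Nfkbia, 12 bases before that of Tnfaip3 and 155 bases before that of Cyld. The Tnfaip3 start that was used lay 247 bases inside the outermost annotated start.

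A wider motif, GGG and TTCC with any 3 bases between them, was tried after these sequences had been seen. It was present in 5 of the 7 members, against 6.49% of the coding genes. The members it added were Nfkbie and Tnip1, with the match again in capitals and read on the strand of the gene.
Nfkbie, chr17:45692533-45692562, plus strand: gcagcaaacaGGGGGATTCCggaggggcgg
Tnip1, chr11:54776481-54776510, minus strand: ctccatcatgGGGGAATTCCcctcctgcct
The match began 106 bases before the start of Nfkbie and 58 bases before that of Tnip1. In Tnip1 a match on the other strand overlapped it, since this stretch is close to a palindrome. The widest form, GGG and CC with any 5 bases between them, was present in 6 of the 7 members and in 61.9% of the coding genes, which is too common to set the members apart. Nfkbib alone among the 7 had none of the 3 forms in its window. These are matches of letters and no binding was measured.

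The genes lie on 7 chromosomes in mm9. By the GENCODE annotation of that build, Nfkbia spans chr12:56590398-56593634, Nfkbib spans chr7:29543270-29552531 and Nfkbie spans chr17:45692665-45700118. Nfkbiz spans chr16:55811488-55839012 and Bcl3 spans chr7:20393811-20408119. Tnfaip3 spans chr10:18720716-18735463, Tnip1 spans chr11:54724289-54776419 and Cyld spans chr8:91220927-91275844. Nfkbie and Cyld are on the plus strand and the other members on the minus strand.

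Expression was given as RPKM on a scale of the authors' own, with 2 columns (R1 and R2) per library whose meaning is not given in the sources used here. The value of a library was their mean. The columns are no replicates, so no difference between times has a replicate check and no p-value is given. The members' columns lay within 11.3% of their mean, and their log2 ratios differed between columns by at most 0.40. A gene was counted as changed past a 2-fold difference from untreated cells in either direction, and the members were read against 6050 coding genes with a mean of at least 100 units. Of the members 7 were above that minimum in their mean and Cyld was not. In bulk RNA, fewer cells that express a gene and less RNA per cell cannot be told apart.

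The libraries were not level. Over the 6050 genes the median log2 ratio was 0.44 after 1.5 hr, -0.74 after 6 hr and 0.10 after 24 hr. It also moved with GC content: at 1.5 hr it was 1.40 in the bin of lowest GC content and -0.76 in the bin of highest, at 24 hr 1.01 and -0.97, and at 6 hr -0.08 and -0.91. Ratios are therefore given as deposited and also after scaling by a median of ratios, which takes out the shift between libraries, and where it matters after centring within 20 bins of GC content. What share of the shift was technical was not tested. Of the fibroblast markers, 7 of 8 had a mean above 100 units, against 0 of 4 endothelial and 0 of 4 epithelial ones, and Epcam was listed at 0 in all libraries. Of the leukocyte and macrophage markers 3 of 6 did, and their summed RPKM was 3237 untreated, 15947 at 1.5 hr, 3027 at 6 hr and 7719 at 24 hr. Most of this was Lyz2, at 2257, 14668, 2692 and 7187 in the same order. Ptprc had 13.4, 30.8, 8.63 and 16.6, Emr1 had 26.3, 74.0, 13.7 and 27.3, and Itgam had 41.1, 64.4, 20.2 and 52.4. Cd68 had 605.0, 822.6, 202.0 and 312.0, and Csf1r had 294.7, 286.8, 90.1 and 124.0, both lower at 6 and 24 hr than in untreated cells. As deposited, the sum was higher along with the members at 1.5 and 24 hr but not at 6 hr. These sums were not scaled. By a median of ratios the factor of the 6 hr library was 0.568 of the untreated one, so the comparison at 6 hr rests on the scaling. The part of the sum in the members' values was not tested.

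At 1.5 hr, 6 of the 8 members were at least 2-fold higher than in untreated cells and 0 were at least 2-fold lower, against 29.8% and 7.97% of the coding genes. As deposited, the 6 were the 3 classical IκB genes and the 3 genes of ubiquitin editing, and neither nuclear IκB gene was among them. At 6 hr 3 members were at least 2-fold higher, against 1.83%, and 0 lower, against 31.5%. At 24 hr 6 were higher, against 16.8%, and 0 lower, against 12.8%. The median log2 ratio of the 8 members was 1.90, 0.52 and 1.49 at the 3 times. After scaling by a median of ratios 5, 7 and 5 members were at least 2-fold higher, against 15.6%, 8.31% and 14.4%, and 0 were at least 2-fold lower, against 17.8%, 2.36% and 15.2%. The members' medians were 1.45, 1.33 and 1.38. After GC centring 6 were higher at each time, against 10.6%, 4.81% and 10.3%, and 0 lower, against 10.4%, 2.65% and 9.07%. These 6 included the nuclear IκB gene Bcl3 (log2 ratio 1.67 at 1.5 hr) and left out Cyld (-0.16). By a median of ratios Cyld was also under 2-fold at 1.5 hr, at 0.79. Nfkbia, Nfkbie and Tnfaip3 were among the higher ones at all 3 times on each of these scales.

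**Figure D1:**
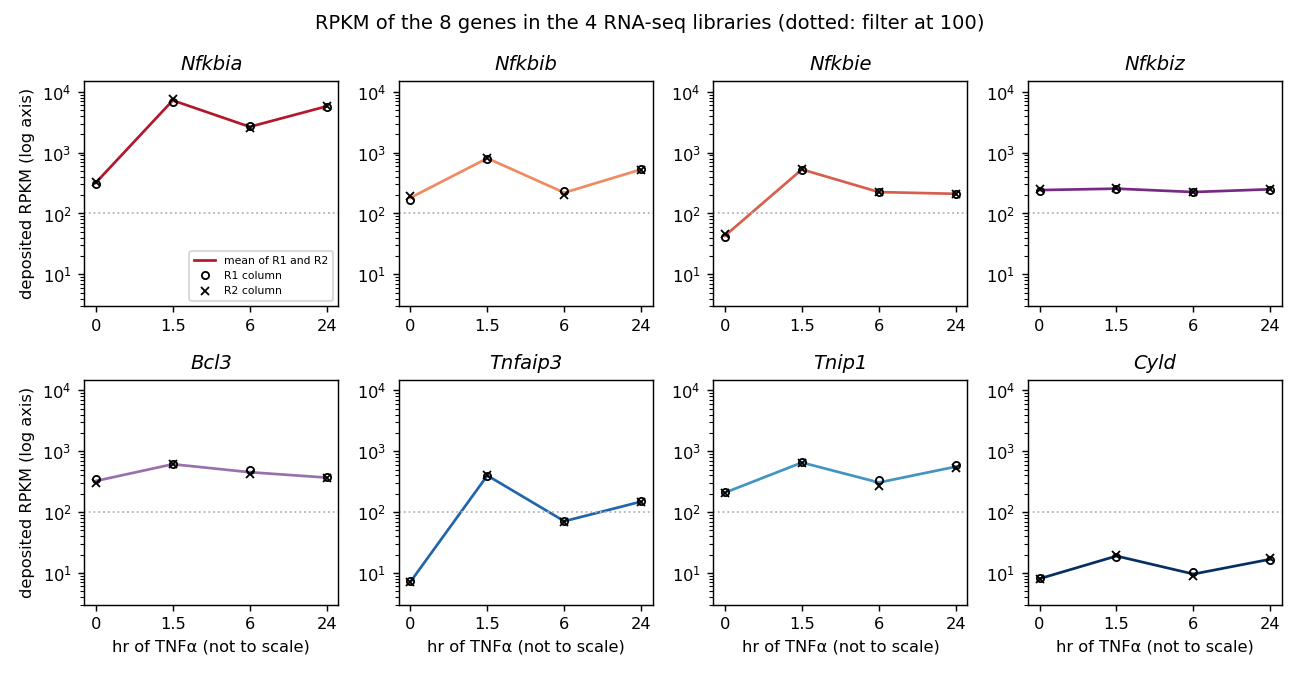
Deposited RPKM (log axis) of each member in the untreated library and at 1.5, 6 and 24 hr of TNFα, with the R1 column as circles, the R2 column as crosses, their mean as a line and the minimum of 100 units dotted. Nfkbia went from 319.3 to 7211 at 1.5 hr and Tnfaip3 from 7.13 to 399.5, while the 4 means of Nfkbiz lay between 225.1 and 255.7.

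Nfkbia, the gene of IκBα, was the most abundant member at every time of TNFα. In untreated cells its RPKM was 310.2 in R1 and 328.4 in R2, near that of Bcl3, with which its columns overlapped. It was 6788 and 7634 at 1.5 hr, 2755 and 2554 at 6 hr, and 5627 and 5918 at 24 hr. All 6 treated values were far above both untreated ones. The mean was 22.6-fold higher at 1.5 hr, 8.31-fold at 6 hr and 18.1-fold at 24 hr, or log2 ratios of 4.50, 3.06 and 4.18. Of the 6050 coding genes, 11, 13 and 9 had a larger ratio at these times. After scaling by a median of ratios the log2 ratios were 4.04, 3.87 and 4.07, so the value at 6 hr was well below the others as deposited and near them after scaling. In untreated cells 87.0% of all coding genes were lower than Nfkbia, and 99.1% were lower at 1.5 hr. Its RPKM was 8.93-fold that of the next member, Nfkbib, at 1.5 hr, 5.87-fold that of Bcl3 at 6 hr and 10.3-fold that of Tnip1 at 24 hr.

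Nfkbib, the gene of IκBβ, had RPKM values of 167.9 and 193.9 untreated, 791.9 and 823.7 at 1.5 hr, 234.5 and 204.6 at 6 hr, and 533.8 and 527.7 at 24 hr. The values at 1.5 and 24 hr were well above the untreated ones, and those at 6 hr only just. The mean was 4.47-fold higher at 1.5 hr, 1.21-fold at 6 hr and 2.93-fold at 24 hr. As log2 ratios these were 2.16, 0.28 and 1.55 as deposited and 1.71, 1.10 and 1.45 after scaling, so Nfkbib passed 2-fold at 6 hr only with the shift of that library taken out. Its ratio exceeded those of 96.5% of the coding genes at 1.5 hr and 93.1% at 6 hr. With a GC content of 60.19% it lies where the median gene was lower at 1.5 hr, and after GC centring its log2 ratio there was 2.58.

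Nfkbie, the gene of IκBε, was the lowest of the classical IκB genes in untreated cells, at 40.4 and 45.6. It reached 518.8 and 541.3 at 1.5 hr, then 222.1 and 227.3 at 6 hr and 212.8 and 207.8 at 24 hr. Unlike Nfkbia and Nfkbib, it was not higher at 24 hr than at 6 hr. The mean was 12.3-fold, 5.22-fold and 4.89-fold higher at the 3 times. The log2 ratios were 3.62, 2.38 and 2.29 as deposited and 3.17, 3.20 and 2.19 after scaling. On the scaled values Nfkbie at 6 hr thus had 102% of its level at 1.5 hr, and at 24 hr 50.6%. Only 22, 26 and 63 coding genes had a larger deposited ratio at the 3 times.

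The makeup of the classical IκB mRNA pool is the same under any scaling by 1 factor per library, though not under GC centring. Nfkbia made up 58.8% of the summed RPKM of the 3 genes in untreated cells, 84.3% at 1.5 hr, 85.7% at 6 hr and 88.6% at 24 hr. Nfkbib went from 33.3% to 9.45%, 7.08% and 8.15%. Nfkbie had 7.92%, 6.20%, 7.25% and 3.23%, so its share at 1.5 and 6 hr was near the untreated one. After GC centring, an alternative added after the data were seen, Nfkbia had 75.8%, 85.1% and 82.8% at the 3 times, Nfkbib had 16.4%, 7.12% and 13.3%, and Nfkbie had 7.79%, 7.80% and 3.87%. The share of Nfkbia was above the untreated one, and that of Nfkbib below it, at each time on both scales. In untreated cells, where its columns differed most, the share of Nfkbia was 59.8% in R1 and 57.8% in R2. Over all 8 members Nfkbia made up 23.9% untreated and 68.8%, 63.8% and 73.5% at the 3 times as deposited. This share was not computed after GC centring.

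The pool was also set against the NF-κB subunits that the IκB proteins bind. The summed RPKM of the 3 classical IκB genes was 0.495 times that of the 5 subunit genes Rela, Relb, Rel, Nfkb1 and Nfkb2 in untreated cells (0.467 in R1 and 0.524 in R2). It was 2.47 times at 1.5 hr (2.34 and 2.60), 1.74 times at 6 hr (1.76 and 1.71) and 3.19 times at 24 hr (3.05 and 3.34). As deposited, the columns of the 4 times did not overlap and gave the same order of times. After GC centring the ratio was 1.64, 1.73 and 2.14 at the 3 times, so each was still above the untreated one but the order of 1.5 and 6 hr turned. This is a ratio of mRNA levels and says nothing of the proteins.

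**Figure D2:**
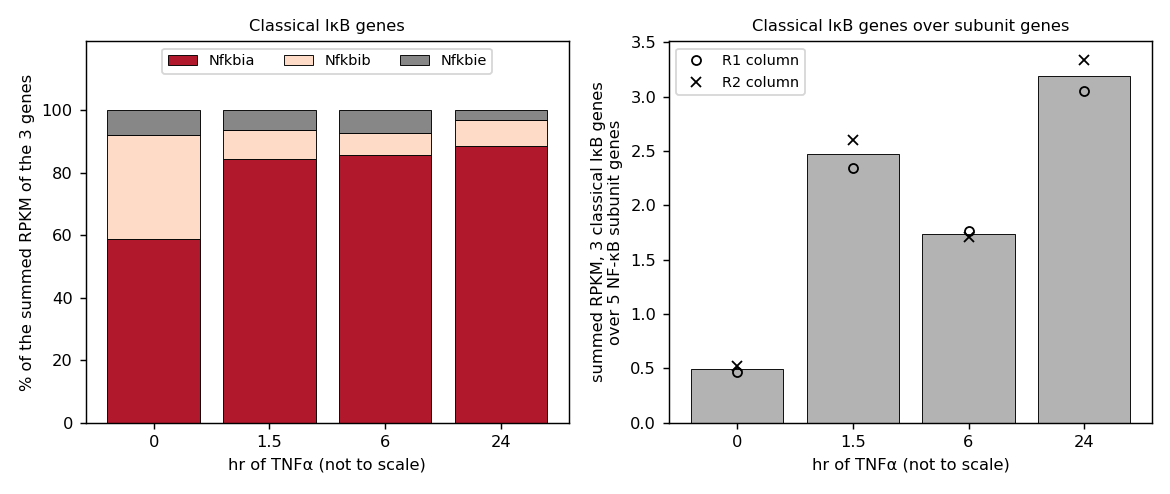
Left, the share of Nfkbia, Nfkbib and Nfkbie in the summed RPKM of the classical IκB genes (percent) at each time. Right, the summed RPKM of these 3 genes over that of the 5 subunit genes, with the mean as a bar and the R1 and R2 columns as circles and crosses. The share of Nfkbia was 58.8% untreated and 88.6% at 24 hr, and the ratio was 0.495 untreated and at least 1.71 in every treated column as deposited.

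The nuclear IκB genes were under 2-fold at every time as deposited. For Bcl3 this depended on the scaling, and for Nfkbiz it did not. Nfkbiz had RPKM values of 235.2 and 249.3 untreated, 248.8 and 262.6 at 1.5 hr, 221.3 and 228.8 at 6 hr, and 243.0 and 256.6 at 24 hr. The columns of 0, 1.5 and 24 hr overlapped, and those of 6 hr were just below the rest. Its log2 ratios were 0.08, -0.11 and 0.04 as deposited, -0.38, 0.71 and -0.06 after scaling by a median of ratios, and -0.79, 0.50 and -0.43 after GC centring. No setting made it 2-fold higher or lower, but its direction at each time depended on the scaling. Its other 2 transcripts had log2 ratios of 0.30 and 0.09 at 1.5 hr, -0.31 and -0.10 at 6 hr, and 0.17 and 0.06 at 24 hr. They share most of their sequence with it and are no independent measurement.

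Bcl3 was the most abundant member in untreated cells by its mean, at 345.4 and 303.6. It had 619.0 and 605.7 at 1.5 hr, 485.5 and 419.2 at 6 hr, and 380.8 and 357.6 at 24 hr. Both columns were higher at each time of TNFα than both untreated ones. The mean was 1.89-fold higher at 1.5 hr, 1.39-fold at 6 hr and 1.14-fold at 24 hr, all under 2-fold. The log2 ratios were 0.92, 0.48 and 0.19 as deposited, 0.46, 1.30 and 0.08 after scaling by a median of ratios, and 1.67, 1.39 and 1.16 after GC centring. Bcl3 has the highest GC content of the members, 61.35%, and whether it passed 2-fold, and at which times, was set by the scaling.

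Tnfaip3, the gene of A20, had the largest deposited ratio of the members at each time. It was the lowest member in untreated cells, at 7.27 and 6.99, and reached 398.4 and 400.6 at 1.5 hr. At 6 hr it had 72.3 and 69.4 and at 24 hr 151.8 and 146.2. All treated values were well above the untreated ones, and no times overlapped. The mean was 56.0-fold higher at 1.5 hr, 9.93-fold at 6 hr and 20.9-fold at 24 hr. The log2 ratios were 5.81, 3.31 and 4.39 as deposited, 5.35, 4.13 and 4.28 after scaling and 4.94, 3.92 and 3.91 after GC centring. Only 3, 7 and 7 coding genes had a larger deposited ratio at the 3 times. The untreated value is low and the number of reads behind it is not given, so the size of these folds is less certain than those of Nfkbia. Its lead over Nfkbia ended in some settings. At 24 hr its GC-centred log2 ratio was 3.91 against 4.02 for Nfkbia. With 10 units added to each value the log2 ratios at 6 hr were 2.24 for Tnfaip3 and 3.02 for Nfkbia, and with 100 units added those at 1.5 hr were 2.22 and 4.12.

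Tnip1, the gene of the A20 partner ABIN1, was higher than Tnfaip3 at every time but changed less. It had 211.7 and 206.0 untreated, 672.5 and 631.9 at 1.5 hr, 341.0 and 271.7 at 6 hr, and 587.1 and 529.4 at 24 hr. All treated values were above the untreated ones. The mean was 3.12-fold, 1.47-fold and 2.67-fold higher. The log2 ratios were 1.64, 0.55 and 1.42 as deposited and 1.19, 1.37 and 1.32 after scaling, and its ratio exceeded those of 88.7%, 96.2% and 92.5% of the coding genes.

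Cyld was low throughout, with 8.12 and 7.97 untreated, 18.6 and 19.4 at 1.5 hr, 10.2 and 9.01 at 6 hr, and 16.4 and 17.3 at 24 hr. The treated values were above the untreated ones at each time. The mean was 2.36-fold, 1.19-fold and 2.09-fold higher, or log2 ratios of 1.24, 0.25 and 1.07. Cyld has the lowest GC content of the members, 42.92%, and after GC centring these were -0.16, 0.33 and 0.06. Its change as deposited was thus close to that of coding genes of like GC content, within 0.33 at all 3 times. Its 4 transcripts gave nearly the same ratios.

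**Figure D3:**
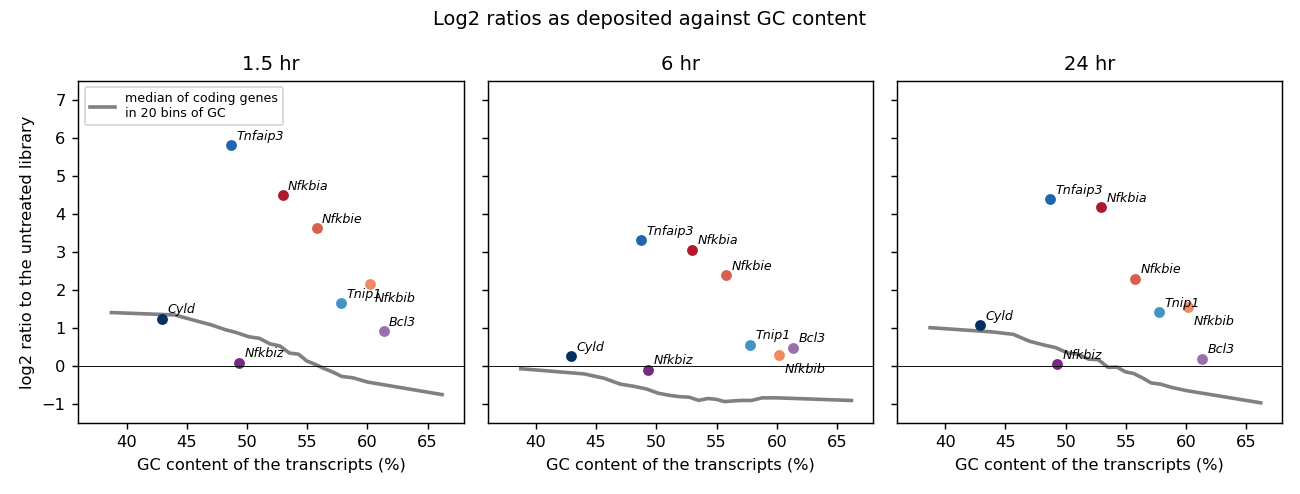
Log2 ratio to the untreated library as deposited against the GC content of the transcripts (percent) for the 8 members (points) at 1.5, 6 and 24 hr, with the median of the coding genes in 20 bins of GC content as a grey line. Tnfaip3, Nfkbia, Nfkbie, Nfkbib, Tnip1 and Bcl3 lie above the line at every time, Cyld lies within 0.33 of the median of its bin, and Nfkbiz lies below it at 1.5 and 24 hr and above it at 6 hr.

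**Figure D4:**
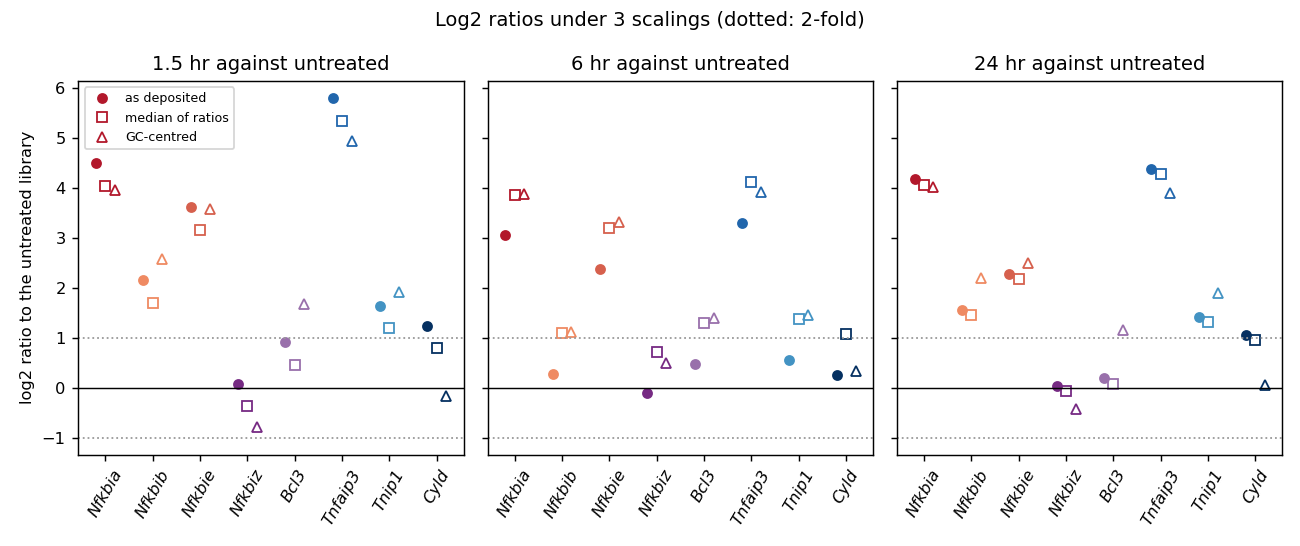
Log2 ratio of each member to the untreated library at 1.5, 6 and 24 hr as deposited (filled circles), after scaling by a median of ratios (squares) and after GC centring (triangles), with 2-fold dotted. Nfkbia, Nfkbie and Tnfaip3 stay above 2-fold in all 9 values, Bcl3 and Cyld cross that line between scalings, and Nfkbib and Tnip1 do so at 6 hr.

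The course after 1.5 hr depended on the scaling for most members. As deposited, 5 of the 8 were at least 2-fold lower at 6 hr than at 1.5 hr, against 64.0% of the coding genes, and 0 were higher, against 2.93%. All 8 had their highest value at 1.5 hr, as did 59.4% of the coding genes. The former share is close to the background. After scaling 2 members had their highest value at 1.5 hr, against 27.0%. After scaling by a median of ratios 1 of the 8 was at least 2-fold lower at 6 hr than at 1.5 hr, against 3.57%, and 1 was higher, against 16.8%. The one that was lower was Tnfaip3, which had 17.7% of its deposited level of 1.5 hr at 6 hr and 42.7% of the scaled one. The one that was higher was Nfkbiz, with 212% of its scaled level of 1.5 hr, while Bcl3 had 178%. Nfkbia had 36.8% of its deposited and 88.8% of its scaled level of 1.5 hr at 6 hr, and 80.0% and 102% at 24 hr. Between 6 and 24 hr 3 members were at least 2-fold higher as deposited, against 47.7%, and 0 were lower, against 3.60%. After scaling 0 were higher, against 2.61%, and 2 were lower, against 14.6%.

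The order of the members also changed. In untreated cells Bcl3 and Nfkbia led with overlapping columns, followed by Nfkbiz, Tnip1, Nfkbib, Nfkbie, Cyld and Tnfaip3, each pair of neighbours without overlap. At 1.5 hr the order was Nfkbia, Nfkbib, Tnip1, Bcl3, Nfkbie, Tnfaip3, Nfkbiz and Cyld, with no overlap between neighbours. At 6 hr Nfkbiz, Nfkbie and Nfkbib were not ranked, since the columns of neighbours overlapped, and at 24 hr Tnip1 and Nfkbib were not. Both columns come from 1 library, so a lack of overlap does not settle an order. Tnip1 was only 1.065-fold above Bcl3 at 1.5 hr. All levels are per length of transcript. The order is of deposited values and was not made after GC centring, which moves genes of unlike GC content against each other.

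For each of the 7 members above 100 units, the genes with the most similar pattern were taken by the distance between their 3 deposited log2 ratios, over 4 libraries and 6049 other coding genes. Nearest to Nfkbia were Gbp2 (distance 0.39), Ccl7 (0.47) and Rnd1 (0.75), and nearest to Tnfaip3 were Rnd1 (0.62), Gbp1 (0.74) and Ccl7 (0.94). Ccl7 encodes a chemokine and Gbp1 and Gbp2 encode guanylate-binding proteins. Nearest to Nfkbie were Lif (0.12), Cxcl1 (0.13) and Icam1 (0.56), which encode a cytokine, a chemokine and an adhesion molecule. As deposited, Lif and Cxcl1 had log2 ratios of 2.31 and 2.36 at 6 hr and 2.38 and 2.42 at 24 hr. They were picked by these ratios, so the likeness to Nfkbie at 6 and 24 hr is no separate result. By a median of ratios Nfkbie had 3.20 at 6 hr and 2.19 at 24 hr. The other members had close neighbours of mixed kinds. They were Ssr3, Psma2 and Rad23b for Nfkbib (0.07 to 0.08), and Mettl2, Arglu1 and Slc9a3r1 for Nfkbiz (0.12 to 0.17). For Bcl3 they were Mfhas1, Iqgap1 and Zfp36 (0.11 to 0.25), and for Tnip1 Srsf1, Myc and Gtpbp4 (0.12 to 0.15). The patterns of all genes share the shift of the libraries, and a pattern of 3 ratios with small changes has many neighbours.

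The rest of the pathway was described by a list of 41 genes, all in the table and 29 of them above 100 units. Of these 29, 12, 3 and 8 were at least 2-fold higher at the 3 times, against 29.8%, 1.83% and 16.8% of the coding genes, and 2, 7 and 4 were lower, against 7.97%, 31.5% and 12.8%. After scaling by a median of ratios 9, 6 and 6 of the 29 were higher, against 15.6%, 8.31% and 14.4%, and 4, 0 and 5 lower, against 17.8%, 2.36% and 15.2%. The median log2 ratio of the 29 genes was 0.48, -0.56 and 0.21, beside 0.44, -0.74 and 0.10 for all coding genes. Of all 41 genes, 20, 4 and 11 were at least 2-fold higher as deposited, against 29.5%, 5.10% and 17.9% of the coding genes without the minimum. As deposited 2, 7 and 4 were lower, against 17.4%, 39.3% and 22.1%. After GC centring 8, 6 and 5 of the 41 were higher, against 10.6%, 4.81% and 10.3% of the coding genes above 100 units. None of the 41 was lower at any time, against 10.4%, 2.65% and 9.07%. The counts over 41 genes include Tnip3, a relative of Tnip1, which was listed at 0 in the untreated library and had 8.84 at 1.5 hr, 5.86 at 6 hr and 33.8 at 24 hr.

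Of the 5 subunit genes 4 were above 100 units, and each of these was at least 2-fold higher at 1.5 hr. Relb had log2 ratios of 2.32, 1.22 and 1.53 as deposited and 2.74, 2.07 and 2.18 after GC centring. Nfkb1 had 2.24, 0.38 and 0.88, or 1.66, 1.19 and 0.70 after GC centring. Nfkb2 had 1.64, 1.08 and 1.01, or 1.96, 1.92 and 1.58. Rela, with RPKM of 404.1 untreated and 845.2 at 1.5 hr, was just past the line there at 1.06, under it after scaling by a median of ratios at 0.61, and past it after GC centring at 1.38. In the receptor complex Birc3, which encodes a ubiquitin ligase, had the largest ratio of the list above 100 units, at 3.30, 1.32 and 2.43, and was past 2-fold after GC centring too, at 2.34, 1.86 and 1.88. Tab2 and Map3k7, whose products form the TAK1 kinase complex, had 1.73 and 1.65 at 1.5 hr, -0.26 and -0.09 at 6 hr, and 1.34 and 1.12 at 24 hr. After GC centring neither reached 2-fold at any time, with 0.65, 0.22 and 0.69 for Tab2 and 0.31, 0.13 and 0.23 for Map3k7. Tab1, of the same complex, had -1.18, -1.30 and -1.44 as deposited, -1.64, -0.48 and -1.54 by a median of ratios and -0.90, -0.39 and -0.96 after GC centring. Map3k14, the kinase of the noncanonical branch, had -0.92, -1.38 and -1.22 as deposited, -1.38, -0.57 and -1.32 by a median of ratios and -0.61, -0.54 and -0.65 after GC centring. Both were below 0 on each scale, but past 2-fold at 6 hr only as deposited.

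For other partners of the members the calls rested on the scaling. Tax1bp1 and Rnf11, whose products work with A20, had log2 ratios of 1.55 and 1.48 at 1.5 hr, 0.04 and 0.30 at 6 hr, and 1.07 and 1.27 at 24 hr. Commd1, which promotes the removal of RelA from DNA, had 1.65, -0.56 and 1.51. By a median of ratios Tax1bp1 had 1.10, 0.85 and 0.97, and Commd1 had 1.19, 0.26 and 1.41. Rnf11 was past 2-fold at all 3 times on that scale, at 1.03, 1.12 and 1.16. After GC centring these 3 genes were under 2-fold at all 3 times. Tax1bp1 then had 0.21, 0.25 and 0.18, Rnf11 had 0.08, 0.38 and 0.26, and Commd1 had 0.45, -0.23 and 0.68. Nfkbil1, named as an IκB-like gene, had -1.71, -1.15 and -1.45 as deposited, -2.16, -0.33 and -1.56 by a median of ratios and -0.95, -0.23 and -0.48 after GC centring. It was below 0 on each scale, and past 2-fold at 6 hr only as deposited. Nfkbid, the gene of a further nuclear IκB, was below 100 units and had 42.1 untreated, 46.4 at 1.5 hr, 35.2 at 6 hr and 30.4 at 24 hr, under 2-fold at every time, as Nfkbiz was. The single IKK gene above 100 units, Ikbkb, was at 0.998-fold, 0.848-fold and 0.755-fold of untreated at the 3 times as deposited. At 6 hr its direction turned with the scaling. Its log2 ratio there was -0.24 as deposited, 0.58 by a median of ratios and 0.59 after GC centring.

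H3K4me3 was present at the starts of 6 of the 8 members in untreated cells, before any TNFα. The list held 11157 peaks called on 1 library, and 54.2% of 19724 coding genes had a peak within 1 kb of an annotated start. Among coding genes above 100 units the share was 92.4%, and among those listed at 0 in the untreated library it was 1.73%. The peak of Nfkbia was at chr12:56591067-56594688, had 985 tags and was enriched 33.65-fold over input by the authors' caller. That of Nfkbib was at chr7:29549696-29553578, with 1418 tags and 83.26-fold enrichment. That of Nfkbie was at chr17:45692057-45694579, with 579 tags and 73.15-fold enrichment. Peaks at starts had a median of 1104 tags and of 46.78-fold enrichment, so the peaks of Nfkbib and Nfkbie were well above the median in enrichment and that of Nfkbia was below it.

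Tnfaip3 had a peak at chr10:18732655-18736388 with 1061 tags and 45.51-fold enrichment, near the medians of all start peaks, although its RNA was among the lowest of the members. Of 499 coding genes with the most similar untreated RPKM, 47.1% had a peak at a start. Cyld, with a like RNA level, also had a peak, at chr8:91219782-91222600 with 966 tags and 28.52-fold enrichment, against 52.3% of 499 genes of similar level. The promoter matches shown above for Nfkbia, Nfkbie, Tnfaip3 and Cyld lay inside these peaks.

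Nfkbiz had 2 peaks. The one over its outer starts, at chr16:55837557-55839954, was 2398 bp long with 455 tags and 47.66-fold enrichment. The other, at chr16:55815502-55824189, was 8688 bp long with 3227 tags and 65.16-fold enrichment. It covered an annotated start 16761 bp inside the gene and was longer than 98.5% of the peaks at starts. It was the longest peak of the members and the one with the most tags.

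Bcl3 and Tnip1 had no peak within 1 kb of a start, nor within 5 kb. The nearest peaks were 59.9 kb and 67.9 kb away. Both were expressed at 324.5 and 208.9 RPKM untreated, and of about 500 coding genes of similar level 92.8% and 90.0% had a peak. The starts of 7 other coding genes lay within 100 kb of those of Bcl3, and the 3 of them above 100 units all had a peak. Of the 4 such genes near Tnip1, 3 were above 100 units and 2 had a peak. The one without was Gpx3, at 2882 RPKM untreated. The lowest enrichment in the list was 20-fold, so a weaker signal at these starts was not seen here.

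**Figure D5:**
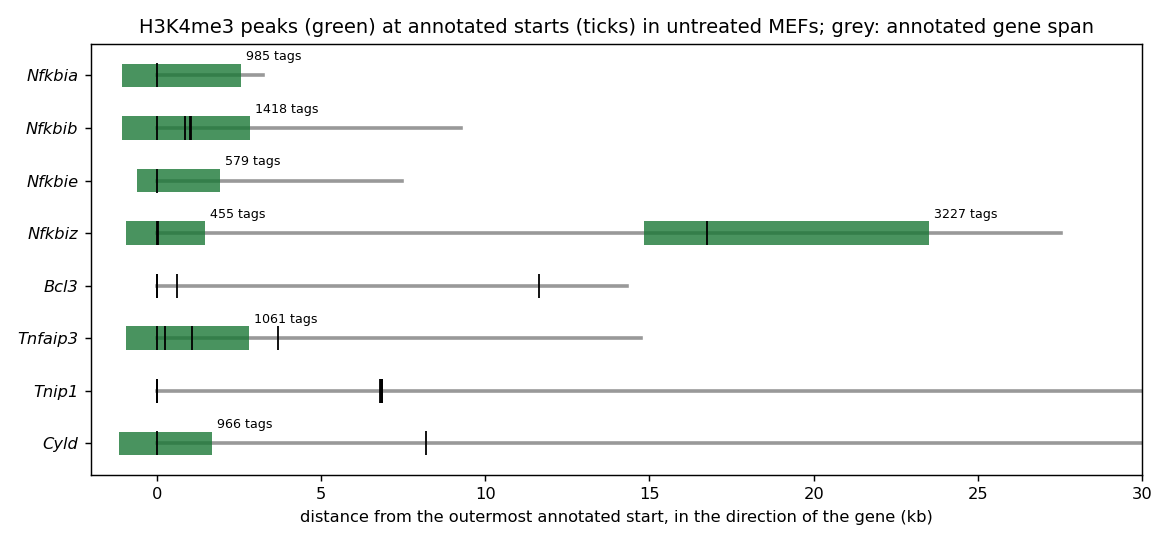
H3K4me3 peaks (green) of untreated MEFs by distance from each member's outermost annotated start (kb, in the direction of the gene), with annotated starts as ticks and the gene span in grey, which is cut at 30 kb. Peaks cover that start in 6 members, Nfkbiz has an added 8688 bp peak at an inner start, and Bcl3 and Tnip1 have none.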

How the data were processed

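RNA-seq reads were mapped to mm9 with TopHat and summarised by the authors as RPKM per RefSeq transcript with their own script. The deposited RPKM has a scale of its own. The study reports the mapped reads of its libraries, but the table gives no reads per gene, so the count behind each value is unknown. ChIP-seq reads were mapped with Bowtie and peaks were called by the authors with MACS on 1 library against input. The deposited peak list gives the count of tags, the ratio to input as fold enrichment, a p-value as a score and the FDR in percent. Table columns were tied to times through the study's list of mapped reads. One label field of the 24 hr sample describes a ChIP protocol, while its title and treatment describe RNA-seq, as which it was used.

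RPKM was averaged over R1 and R2 with no pseudocount (Python 3.11.15, numpy 2.4.6, pandas 2.3.3). The 6050 coding genes had a mean of at least 100 units, with 1 transcript per symbol, and GC content was found for 98.0% of them. No test was possible with 1 library a time. Scaling used a median of ratios to the geometric mean of the 4 libraries, with each factor then divided by that of the untreated library. The calculation was tested on simulated libraries with or without a uniform shift and with no GC trend. That test does not cover the GC dependence of these data. Members and lists were chosen with earlier results of these data known. Named genes were the 8 members, at most 12 list genes above the minimum with the largest changes of at least 2-fold, and 3 nearest patterns per member. Rela, Tnip3, Nfkbid, Ikbkb and Gpx3 were named after their values were seen. Protein sequences were not used here. Alternatives were other scalings, pseudocounts, thresholds, filters, columns, peak distances and motifs.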

Additional observations from a re-analysis of the deposited data

Results flagged for a closer look

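Nfkbiz moved in opposite directions between times as deposited, in both columns. Its log2 ratio was 0.08 after 1.5 hr, -0.11 after 6 hr and 0.04 after 24 hr, so 6 hr differed in sign from each of the other times. With 1 library per time the difference was not tested. Each ratio was small, and the sign at 1.5 and 6 hr turned after scaling by a median of ratios (-0.38 and 0.71). The shift of the 6 hr library moved with it (median log2 ratio of coding genes -0.74), and its part in the difference was not tested.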

How the results depend on the processing

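No paired analysis was possible because each time had 1 library and no result came from a test. As deposited, 3 members were at least 2-fold higher at 6 hr. The number was 7 with values scaled to their sum or by a median of ratios, and 6 after GC centring or with a trimmed mean. Of the 6050 coding genes, 515 were higher at 6 hr when scaled to the sum and 431 by a trimmed mean. The 6 members higher at 24 hr were 3 at a 3-fold threshold, for which no share of the coding genes is given. The log2 ratio of Cyld at 1.5 hr was -0.16 after GC centring. The 3 members with κB letters became 6 with the widest form of the motif and 5 with the form chosen after the sequences were seen.

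In the list of 41 genes, the 20 higher at 1.5 hr became 8 after GC centring, 7 with a pseudocount of 100 and 11 at 3-fold. The 2 lower at 1.5 hr became 4 by a median of ratios, a trimmed mean or 1.5-fold, 0 after GC centring, and 1 with a pseudocount of 100 or at 3-fold. The 4 higher at 6 hr became 8 when scaled to the sum or by a median of ratios, 7 by a trimmed mean, 0 with a pseudocount of 100 and 1 at 3-fold. The 7 lower at 6 hr became 0 under all of these, after GC centring as well, and 15 at 1.5-fold. The 11 higher at 24 hr became 7 by a median of ratios or a trimmed mean, 5 after GC centring, 3 with a pseudocount of 100 and 2 at 3-fold. The 4 lower at 24 hr became 0 after GC centring or at 3-fold and 1 with a pseudocount of 100. The cause of these moves was not tested. After GC centring, added after the data were seen, Nfkbib made up 16.4% of the classical IκB genes at 1.5 hr and 13.3% at 24 hr, against 9.45% and 8.15% as deposited, and these genes were 1.64 and 2.14 times the subunit genes, against 2.47 and 3.19 times.

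The counts of members higher at 1.5 hr and of members with an H3K4me3 peak stayed within 1.5 times under the alternatives run for them. Which members were higher at 1.5 hr changed with the scaling. At an enrichment of at least 40-fold, 4 members kept a peak at a start, against 35.1% of the coding genes. Nfkbia (33.65-fold) and Cyld (28.52-fold) did not. One library per time gives no error for any change, and the lack of read counts per gene limits the low values of Tnfaip3 and Cyld most.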
